A study of Mus musculus with 18 samples.

Results

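Gpx4 encodes the glutathione peroxidase that reduces lipid hydroperoxides inside membranes, and it was followed by its row in the deposited tables, as 1 of 23 selenoprotein genes, in 9 ribosome footprint libraries and 9 RNA-seq libraries of mouse liver. Each assay covered 4 groups of male mice aged 5 to 8 weeks. Knockouts had the genotype Alb-Cre; Secisbp2fl/fl (2 libraries per assay) or Alb-Cre; Trspfl/fl (2 libraries), and each was set against matched wild type littermates (2 for Secisbp2 and 3 for Trsp). Alb-Cre drives the deletion in hepatocytes, so other liver cells keep the gene. Whole livers were used, and fewer cells of a type cannot be told apart from less RNA per cell.

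GPX4 carries selenocysteine in its active site, and the codon for it is UGA, which otherwise ends translation. SECISBP2 binds a hairpin in the untranslated end of selenoprotein mRNAs, the SECIS element, and Trsp is the gene of the transfer RNA that brings selenocysteine to the ribosome. Ribosomes that read through the UGA leave footprints on its 3' side, and those that stop there do not. When selenium is short, cells keep GPX4 at the expense of selenoproteins such as GPX1, which removes hydrogen peroxide in the cytosol, and GPX4 is known as the enzyme that holds back ferroptosis, a death by lipid peroxidation. The gene gives cytosolic, mitochondrial and nuclear forms, which share the row and cannot be told apart here, and neither can reads from its 2 pseudogenes in the reference gene table.

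Values are RPKM, that is reads scaled to the length of the window and to the mapped reads of the library. The total behind each library, recovered from the RPKM steps, was 5065579 to 20645294 mapped reads for footprints and 6522357 to 36510084 for RNA-seq. The smallest window lengths that give whole reads for Gpx4 were 186 nt 5' of the UGA, 359 nt 3' of it and 954 nt for RNA. By the library codes in the labels, Secisbp2 wild type, Secisbp2 knockout and Trsp livers carry different number series, so that Secisbp2 genotype and code series cannot be told apart, while both Trsp groups share a series. The protocol gives 3 mice for each background and does not tie the libraries to them, so p-values measure the spread between libraries. Neither Secisbp2, Trsp nor the cell type markers are among the 23 genes, and the deletion and the makeup of the tissue were not analysed here.

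Gpx4 mRNA was highest in Secisbp2 wild type livers, at 577.0 and 500.8 RPKM (3590 and 12292 reads). Secisbp2 knockout livers had 210.2 and 186.8 RPKM (7032 and 6505 reads). Both knockout libraries lay far below both wild types, and their mean of 198.5 ± 16.6 RPKM (SD, n = 2) was 36.8% of the wild type mean of 538.9 ± 53.8 RPKM (SD, n = 2). Trsp wild type livers had 233.4, 262.3 and 328.5 RPKM (4405, 5641 and 7160 reads), and Trsp knockout livers 353.7 and 337.9 RPKM (10625 and 6434 reads). Here the knockout libraries lay above the wild types, with means of 345.8 ± 11.1 (SD, n = 2) and 274.8 ± 48.7 RPKM (SD, n = 3), and the third wild type library came close to them. In the order of means, Secisbp2 wild type, Trsp knockout, Trsp wild type and Secisbp2 knockout, no neighbouring groups overlapped.

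Gpx4 mRNA fell in Secisbp2 knockout livers: its change in log2(RPKM + 0.5) was -1.44 (SE 0.167, limma adjusted p = 6.28e-05). Of the 20 selenoprotein mRNAs with a mean of at least 1 RPKM, 70% passed the adjusted threshold of 0.05 in either direction and 50% did so downward, so a fall was common. Gpx4 stood between Selenoh (-1.17), a nuclear redox protein, and Selenow (-1.73), a small redox protein of the cytosol. The ends of the order were Gpx1 (-2.64) and Selenoi (0.51), an ethanolamine phosphotransferase. The size of the fall depended on the control: it was -0.85 with the wild types of both colonies pooled (adjusted p = 0.0646) and -0.46 against the Trsp wild types (adjusted p = 0.0185).

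In Trsp knockout livers the log2 change of Gpx4 mRNA was 0.35 (SE 0.152, limma adjusted p = 0.0631, 95% interval -0.00091 to 0.69), which did not pass. It passed without Trsp wild type replicate 3, the library nearest to the knockouts (0.48, adjusted p = 0.00783), with libraries scaled to the median ratio (0.91, adjusted p = 0.000904) or level (1.53, adjusted p = 1.86e-05) of the 20 genes, and at 0.35 with the 2 groups alone (adjusted p = 0.0127), precision weights (adjusted p = 0.0433) or a minimum of 5 RPKM (adjusted p = 0.0393). Scaling to the 20 genes removes any change that they share, and it raised their median by 0.56 (ratio) and 1.18 (level). The Gpx4 change turned to -0.047 with the wild types pooled (adjusted p = 0.935) and to -0.64 against the Secisbp2 wild types (adjusted p = 0.00813). In this comparison 75% of the 20 mRNAs passed, 70% downward and 5% upward, with a median log2 change of -0.66. Gpx4 was thus 2nd from the top of 20. Above it stood Gpx2, the peroxidase best known from the gut epithelium, which had 3 reads over the 3 wild type libraries and 783 over the 2 knockouts. Just below stood Gpx3 (-0.00), the secreted peroxidase of plasma, and the lowest was Gpx1 (-2.76).

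**Figure D1:**
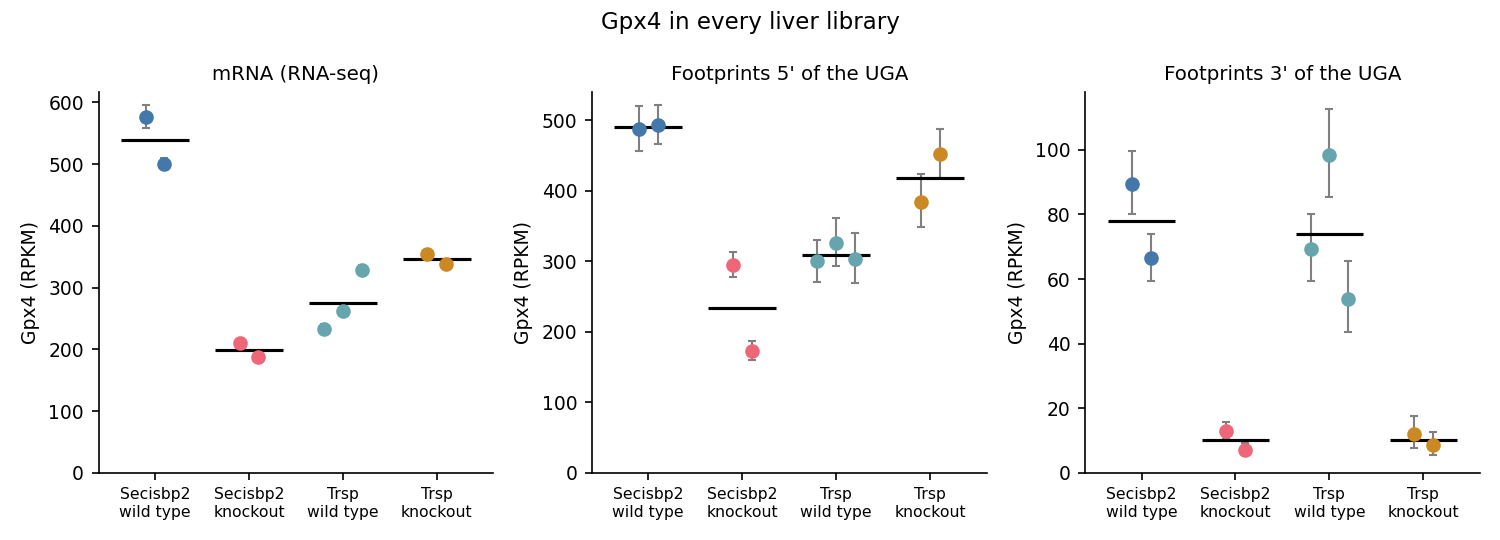
Gpx4 in each library as RPKM of mRNA, of footprints 5' of the UGA and of footprints 3' of it; points are libraries with exact Poisson 95% intervals (counting error only) and lines are group means. Knockout libraries of Secisbp2 lie below their wild types in each panel, while those of Trsp lie above theirs for mRNA and 5' footprints and below for 3' footprints.

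Ribosome density 5' of the UGA, which tracks how many ribosomes start on the mRNA, followed the same order of groups as the mRNA. It was 487.6 and 493.7 RPKM in Secisbp2 wild type livers (923 and 1252 reads) and 295.1 and 173.2 RPKM in Secisbp2 knockouts (1078 and 665 reads). The wild types were alike, while the knockouts differed between themselves beyond their counting intervals (277.7 to 313.2 and 160.3 to 186.9 RPKM) and both lay lower. The log2 change was -1.12 (SE 0.272, limma adjusted p = 0.0127), and 45% of 20 genes passed, each of these downward. Without Secisbp2 knockout replicate 2 it was -0.73 (adjusted p = 0.0444). The call was lost with the wild types pooled (-0.72, adjusted p = 0.118), against the Trsp wild types (-0.45, adjusted p = 0.182), with the 2 groups alone (-1.12, adjusted p = 0.0654) and with libraries scaled to the median ratio (-0.43, adjusted p = 0.123) or level (-0.51, adjusted p = 0.107) of the 20 genes. Selenot (-1.06), a redox protein of the endoplasmic reticulum, and Selenof (-1.42), which works with the glycoprotein folding machinery there, were its neighbours in rank, and Selenok (1.27, adjusted p = 0.0772) and Gpx1 (-3.46) were at the ends.

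Trsp wild type livers had 299.7, 325.4 and 302.5 RPKM 5' of the UGA (404, 360 and 285 reads), and Trsp knockouts 384.4 and 451.8 RPKM (418 and 677 reads). The knockout libraries again lay above the wild types, at 135% of their mean, but the log2 change of 0.43 did not pass (SE 0.248, limma adjusted p = 0.144, 95% interval -0.15 to 1.01). It passed with libraries scaled to the median ratio (1.13, adjusted p = 0.00311) or level (1.61, adjusted p = 0.00143) of the 20 genes, and was -0.24 against the Secisbp2 wild types (adjusted p = 0.517). Such scaling removes any change that the 20 genes share, and their own median was -0.79. Of the 20 genes 60% passed, 55% downward and 5% upward. Gpx4 was 3rd from the top, below Gpx2, with 0 reads 5' of the UGA in the wild types and 48 in the knockouts, and Gpx3 (0.99, adjusted p = 0.0824), and above Selenoh (0.03). Both neighbours rest on few reads, with 4 in the wild types and 8 in the knockouts for Gpx3, and 10 and 4 for Selenoh. Gpx1 was lowest (-3.78).

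Footprints 3' of the UGA were scarce in both knockouts. Secisbp2 wild type livers had 89.5 and 66.4 RPKM (327 and 325 reads) and the knockouts 12.9 and 7.15 RPKM (91 and 53 reads). Trsp wild types had 69.2, 98.3 and 53.9 RPKM (180, 210 and 98 reads) and the knockouts 11.9 and 8.64 RPKM (25 reads in each). Every knockout library lay far below every wild type library, the wild type groups overlapped each other, and so did the knockout groups. The knockout means were 12.9% and 13.9% of their wild types.

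The log2 change of the 3' density was -2.94 in Secisbp2 knockouts (SE 0.409, limma adjusted p = 5.79e-05) and -2.76 in Trsp knockouts (SE 0.373, adjusted p = 3.23e-05). Of 12 genes with enough reads, 75% and 83.3% passed, all of these downward. Gpx4 stood next to Selenop (-2.74), the selenium transporter that the liver secretes, and Gpx1 (-2.94) in the Secisbp2 comparison, and to Selenof (-2.30) and Dio1 (-2.99), the deiodinase that activates thyroid hormone, in the Trsp comparison. Sephs2, which makes the selenium donor, was lowest in both (-3.45 and -5.61), while Gpx3 (0.38, adjusted p = 0.390) and Selenoi (1.63, adjusted p = 0.0532) were highest. Gpx3 had only 17 reads in Secisbp2 wild types and 38 in their knockouts. Selenoi had 18 in Trsp wild types and 27 in their knockouts. The falls of Gpx4 are relative to mapped reads: with libraries scaled to an equal median level over the 12 genes, whose own medians were -2.29 and -3.18, Gpx4 came to 0.20 (adjusted p = 0.711) and 0.82 (adjusted p = 0.0539), and with the median ratio to -0.71 (adjusted p = 0.0651) and 0.22 (adjusted p = 0.418). Such scaling removes any fall that the 12 genes share, so these values show Gpx4 only relative to the 12 genes.

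The difference of the knockout effects on the 3' density was -0.18 (SE 0.553, limma adjusted p = 0.752), with a 95% interval of -1.41 to 1.05 on the log2 scale. The interval is wide enough to hold a difference of 2-fold in either direction. The 3' density is the product of the mRNA level, the 5' density per mRNA and the ratio of 3' to 5' density. The log2 changes of these 3 quantities therefore add up to its own. The 3'/5' ratio is not the fraction of ribosomes that read through the UGA. Its mean in Secisbp2 wild types was 496% for Selenoi and 170% for Selenof.

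Per mRNA, the 5' density of Gpx4 did not separate the groups. The ratio of same-numbered libraries was 0.845 and 0.986 in Secisbp2 wild types, 1.40 and 0.927 in Secisbp2 knockouts, 1.28, 1.24 and 0.921 in Trsp wild types, and 1.09 and 1.34 in Trsp knockouts. The labels do not say that libraries of the 2 assays with the same number come from the same liver. All 4 groups overlapped their neighbours in the order of means. The interaction of assay and genotype was 0.32 for Secisbp2 (SE 0.318, limma adjusted p = 0.651, 95% interval -0.37 to 1.01) and 0.09 for Trsp (SE 0.290, adjusted p = 0.864, 95% interval -0.54 to 0.71). In the same fits 5% and 10% of 20 genes passed, among them Txnrd1 (-1.18), the cytosolic thioredoxin reductase, in the Trsp comparison.

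Past the UGA the groups separated. In Secisbp2 wild type livers the 3' density was 18.4% and 13.4% of the 5' density, with exact binomial 95% intervals of 16.1 to 20.8% and 11.9 to 15.2%. Secisbp2 knockouts had 4.37% (3.49 to 5.42%) and 4.13% (3.06 to 5.47%). The wild types differed between themselves beyond these counting intervals, the knockouts did not, and no knockout came near a wild type.

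Trsp wild type livers had 23.1% (19.3 to 27.6%), 30.2% (25.4 to 35.9%) and 17.8% (14.0 to 22.5%), and Trsp knockouts 3.10% (1.98 to 4.64%) and 1.91% (1.23 to 2.85%). The wild type range overlapped that of Secisbp2 wild types, and the Trsp knockouts were the lowest of the 9 libraries. The knockout mean was 26.7% of wild type for Secisbp2 (4.25 ± 0.173 against 15.9 ± 3.47%, SD, n = 2 each). For Trsp it was 10.6% (2.51 ± 0.838%, SD, n = 2, against 23.7 ± 6.23%, SD, n = 3). Among the 12 genes, the mean ratio of Gpx4 was 10th and 11th from the top in the Secisbp2 and Trsp wild types and 12th and 11th in their knockouts, so that Gpx4 had one of the lower ratios in each group. The windows differ between genes, 3' of the UGA from 17 nt for Selenoi to 1154 nt for Sephs2. Their part in this rank was not tested.

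The log2 change of the 3'/5' ratio was -1.82 in Secisbp2 knockouts (SE 0.378, limma adjusted p = 0.0241), where 25% of 12 genes passed. Of these, Gpx4, Selenof (-1.89) and Sephs2 (-1.29) fell. Msrb1 (-2.00, adjusted p = 0.119), a methionine sulfoxide reductase, and Dio1 (0.90, adjusted p = 0.0597) were at the ends and did not pass. The call of Gpx4 was lost without Secisbp2 wild type replicate 1 (-1.60, adjusted p = 0.122), Secisbp2 knockout replicate 1 (-1.84, adjusted p = 0.137) or 2 (-1.80, adjusted p = 0.135), and Trsp wild type replicate 1 (-1.82, adjusted p = 0.0600). It was lost as well with libraries scaled to the median ratio (-0.95, adjusted p = 0.204) or level (-1.43, adjusted p = 0.0763) of the 12 genes, whose own median was -0.65. The 3'/5' ratio is taken within a library, so such scaling does not correct for depth and removes any change that the 12 genes share.

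In Trsp knockouts the 3'/5' ratio of Gpx4 changed by -3.19 in log2 (SE 0.345, limma adjusted p = 0.000158), where 75% of the 12 genes passed, each downward. It was 3rd from the bottom, between Selenot (-2.69) and Msrb1 (-3.44), with Sephs2 lowest (-4.81) and Selenoi highest (2.13, adjusted p = 0.0851). The fall was -1.13 (adjusted p = 0.111) and -0.80 (adjusted p = 0.204) once the libraries were scaled to the median ratio or level of the 12 genes, whose own median was -1.82. The knockout effects differed by 1.37 (SE 0.512, adjusted p = 0.0777, 95% interval 0.15 to 2.58), which did not pass, and 33.3% of 12 genes did. Without Trsp knockout replicate 1 the difference was 1.70 (adjusted p = 0.0488).

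**Figure D2:**
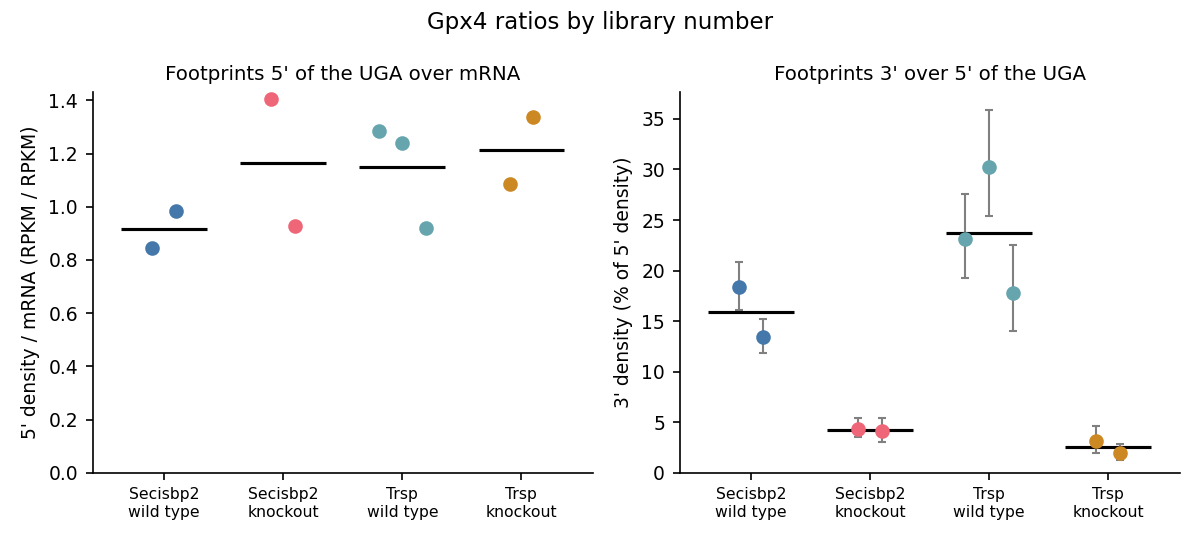
Gpx4 5' density over mRNA (left, RPKM over RPKM of same-numbered libraries) and 3' density as a percentage of 5' density in the same library (right, exact binomial 95% intervals, counting error only); lines are group means. The left panel overlaps across groups; on the right the knockouts lie between 1.91% and 4.37% and the wild types between 13.4% and 30.2%.

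Set side by side, the mRNA part is where a difference between the knockouts passed (-1.78, adjusted p = 0.000207), while those of the 5' density per mRNA (0.24, limma adjusted p = 0.789) and of the 3'/5' ratio (1.37, adjusted p = 0.0777) did not. In Secisbp2 knockouts the 3' change of -2.94 was made up of -1.44 for mRNA, 0.32 for 5' density per mRNA and -1.82 for the 3'/5' ratio. In Trsp knockouts the -2.76 was made up of 0.35, 0.09 and -3.19. The mRNA term was 48.9% of the fall in Secisbp2 knockouts and had the opposite sign in Trsp knockouts.

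**Figure D3:**
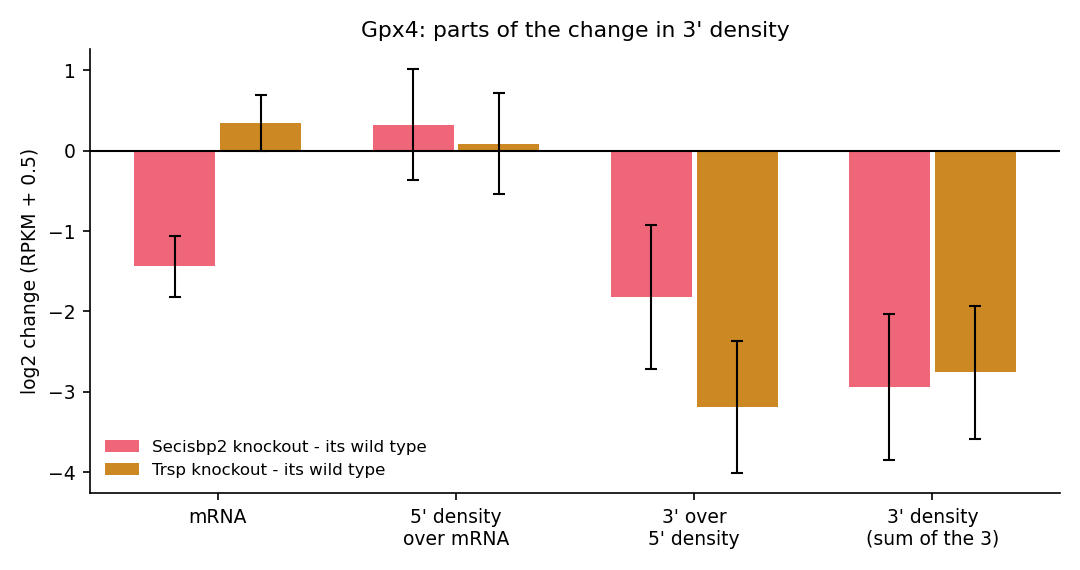
Log2 changes of Gpx4 for each knockout against its own wild type, with 95% intervals from limma; the first 3 pairs of bars add up to the fourth. The 3' density bars are alike (-2.94 and -2.76), while the mRNA bars are -1.44 and 0.35.

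The effects on Gpx4 mRNA themselves differed between the knockouts. The Secisbp2 effect minus the Trsp effect was -1.78 (SE 0.226, limma adjusted p = 0.000207), and it kept its sign and its call in each fit that left out a library, from -1.92 to -1.67. For 5' density the difference was -1.55 (SE 0.368, adjusted p = 0.00893), from -1.93 to -1.16 with a library left out. Of the 20 genes 70% passed for mRNA, 35% in each direction, and 55% for 5' density, 25% downward and 30% upward. Gpx4 was 2nd from the bottom of 20 for mRNA, above Gpx2. This difference holds that between the wild types, since Trsp wild type livers had 51.0% of the Gpx4 mRNA of Secisbp2 wild types, a log2 difference of -0.98 (SE 0.152, adjusted p = 0.000566) beside 45% of genes called. The mRNA of the knockouts, 198.5 and 345.8 RPKM, did not overlap either. Against the other colony's wild type the mRNA effects were -0.46 for Secisbp2 and -0.64 for Trsp. The difference of effects was not run with other controls.

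Between the wild types the 5' density differed by -0.67 (SE 0.248, limma adjusted p = 0.0804), the 3' density by -0.11 (SE 0.373, adjusted p = 0.852, 95% interval -0.93 to 0.72) and the 3'/5' ratio by 0.56 (SE 0.345, adjusted p = 0.301, 95% interval -0.26 to 1.38). None of these passed, beside 15%, 25% (16.7% higher and 8.33% lower) and 8.33% of genes called. The wild types come from different colonies and different code series, which cannot be told apart.

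Ratios within a library do not depend on its depth, and they were used to set Gpx4 mRNA against each of the other 19 genes. In Secisbp2 knockouts Gpx4 fell relative to 12 genes (63.2%) and rose relative to 3 (15.8%), Gpx1 by 1.20 (SE 0.197, limma adjusted p = 0.000245), Dio1 by 1.10 and Selenop by 0.99. In Trsp knockouts it rose relative to 16 (84.2%) and fell relative to 1 (5.26%), Gpx2. The 19 ratios share Gpx4 and are not independent. Against the other colony's wild type the counts were 5 lower and 8 higher for Secisbp2 and 6 lower and 6 higher for Trsp.

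The other housekeeping selenoproteins were on opposite sides of Gpx4 in the 2 knockouts. Gpx4 over Txnrd1 mRNA changed by -1.94 in Secisbp2 knockouts (SE 0.241, limma adjusted p = 4.12e-05) and by 1.05 in Trsp knockouts (SE 0.220, adjusted p = 0.000905). Over Txnrd2, the mitochondrial thioredoxin reductase, it changed by -1.26 and 1.32, and over Selenoi by -1.94 and 0.73, each past the threshold. The reversal was not particular to this list, as Selenof, Selenok, Selenoo, Selenot, Msrb1 and Txnrd3 had it too, past the threshold in both knockouts. Of all 19 genes, 63.2% passed as lower in Secisbp2 knockouts and 84.2% as higher in Trsp knockouts. Over Gpx3, Gpx4 changed by -1.13 (adjusted p = 0.00231) and 0.35 (adjusted p = 0.193). These ratios are against each knockout's own wild type, so they hold the difference between the wild types as well. From Secisbp2 to Trsp wild types Gpx4 mRNA differed by -0.98, Txnrd1 by 0.01, Txnrd2 by -0.82 and Selenoi by 0.52.

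**Figure D4:**
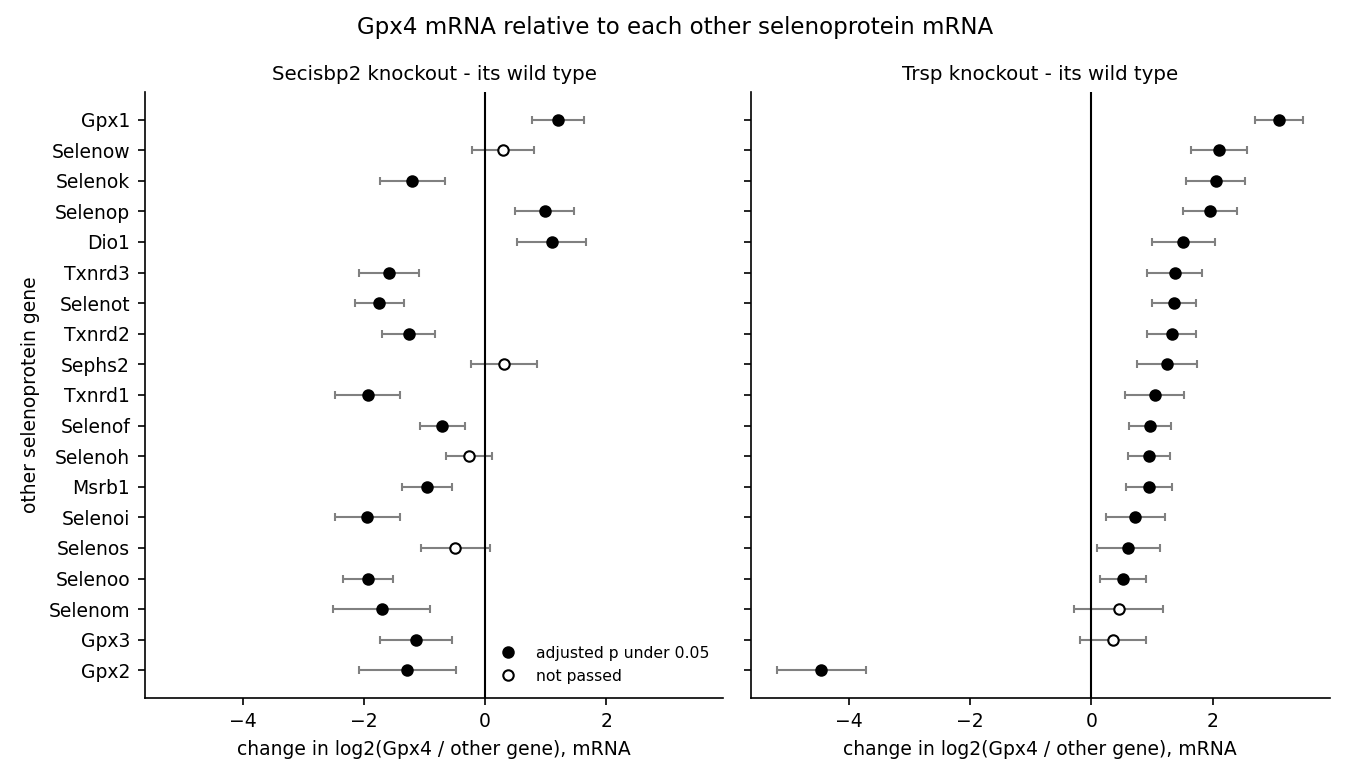
Change of log2(Gpx4 over the other gene) in mRNA for each of 19 other selenoprotein genes, Secisbp2 knockout (left) and Trsp knockout (right) against their own wild types, with 95% intervals from limma; filled points passed. Points lie mostly left of 0 on the left (12 lower, 3 higher) and mostly right of 0 on the right (16 higher, 1 lower).

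For 5' density the same ratios were lower for 9 genes (47.4%) and higher for 4 (21.1%) in Secisbp2 knockouts, and lower for 1 (5.26%) and higher for 14 (73.7%) in Trsp knockouts. Without Secisbp2 knockout replicate 1 the 4 became 2. As a share of the summed RPKM of the 23 mRNAs, Gpx4 was 11.1% and 9.17% in Secisbp2 wild types and 13.0% and 13.5% in their knockouts. It was 3.93%, 4.70% and 5.23% in Trsp wild types and 15.7% and 15.5% in their knockouts. In both colonies the knockouts held the larger share, and in Trsp knockouts Gpx4 was the 2nd most abundant of the 23 mRNAs, from 5th in their wild types. The share depends on the sum as well. In Secisbp2 knockouts Gpx4 mRNA itself fell, and mean Gpx1 went from 2020 to 326 RPKM and Selenop from 1744 to 326 RPKM.

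Gpx1, the most abundant peroxidase of the wild type livers, gave a wide contrast. Gpx4 mRNA over Gpx1 mRNA was 0.287 and 0.247 in Secisbp2 wild types, 0.573 and 0.655 in Secisbp2 knockouts, 0.112, 0.133 and 0.150 in Trsp wild types, and 1.19 and 1.07 in Trsp knockouts. Gpx4 mRNA thus went from below Gpx1 to level with it in Trsp knockouts, and no groups overlapped. For 5' density the means were 0.331 ± 0.0109 (SD, n = 2) and 1.74 ± 0.628 (SD, n = 2) in Secisbp2 wild type and knockout. They were 0.202 ± 0.114 (SD, n = 3) and 3.27 ± 0.820 (SD, n = 2) in Trsp wild type and knockout.

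Past the UGA the ratio to Gpx1 behaved otherwise in the Secisbp2 knockouts. Their 3' values were 0.0744 and 0.0610 against 0.0669 and 0.0733 in wild type, which overlapped. Trsp knockouts had 0.489 and 0.333 against 0.0522, 0.131 and 0.0393 in wild type, with no overlap. These 3' ratios are given as values with no test.

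**Figure D5:**
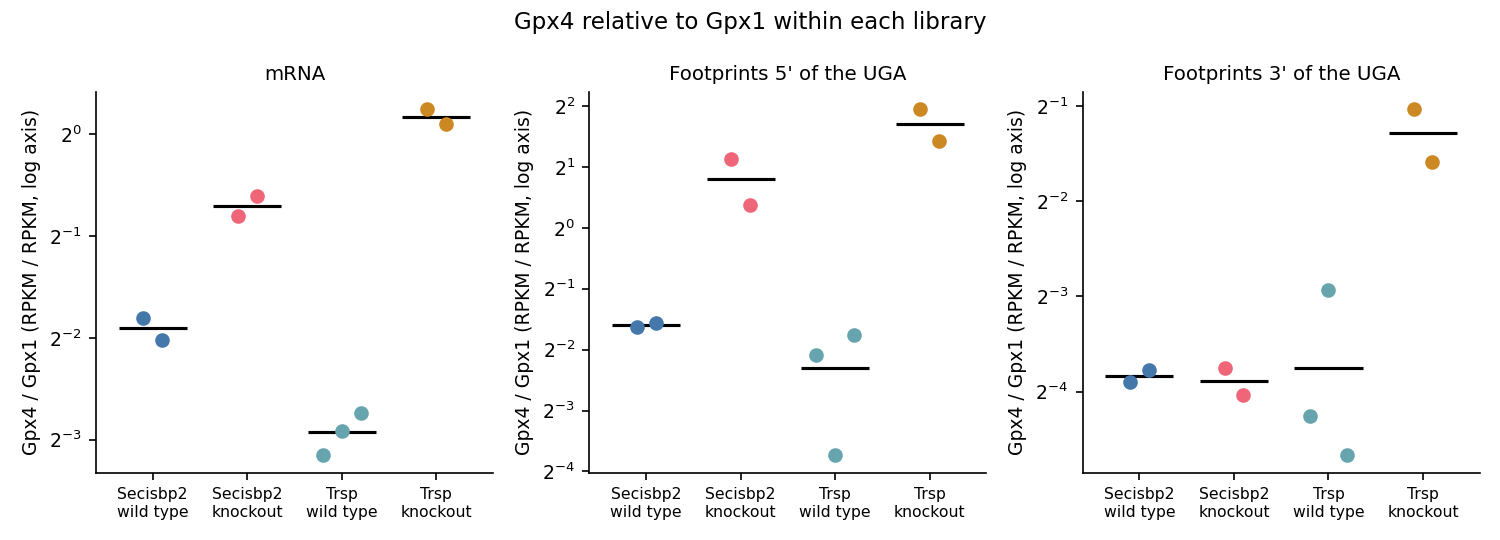
Gpx4 over Gpx1 within each library for mRNA, 5' and 3' footprint density (RPKM over RPKM, log axis); points are libraries and lines arithmetic group means. Knockouts lie above their wild types in each panel, except for 3' density in Secisbp2 livers, where the groups overlap.

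Of the 4 glutathione peroxidase mRNAs, 2 fell in Secisbp2 knockouts, Gpx1 and Gpx4, which is the share of 50% that fell among all 20 mRNAs, with Gpx3 (-0.30, limma adjusted p = 0.166) and Gpx2 (-0.16, adjusted p = 0.687) not past the threshold, and the list's median was -0.87 beside -0.39 over all 20 genes. In Trsp knockouts 1 rose, 1 fell and 2 did not pass, where 5% of all mRNAs rose and 70% fell. Of the 4 housekeeping selenoproteins, Gpx4 was the member that fell in Secisbp2 knockouts, while Txnrd1 (0.50) and Selenoi (0.51) rose and Txnrd2 (-0.18, adjusted p = 0.169) did not pass. In Trsp knockouts the other 3, Txnrd1 (-0.70), Txnrd2 (-0.98) and Selenoi (-0.38), fell, as did 70% of all 20 mRNAs. The difference of the knockout effects passed for each of the 4 and for 70% of all mRNAs, at -1.78 for Gpx4 and at 1.20, 0.80 and 0.89 for Txnrd1, Txnrd2 and Selenoi.

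The list of selenium-sensitive mRNAs has 4 members (Gpx1, Msrb1, Selenoh and Selenow), and each fell in both knockouts, with medians of -1.45 and -1.18, where 50% and 70% of all 20 mRNAs fell and the medians were -0.39 and -0.66. The change of Gpx4, -1.44, was near that median in Secisbp2 knockouts, where the 4 were spread widely, from -2.64 to -0.48. Its 0.35 in Trsp knockouts was above each of the 4, which there ran from -2.76 to -0.60. For 5' density 2 of these 4, Gpx1 and Selenow, fell in each knockout, with list medians of -1.54 and -1.15, near the 45% and 55% of all 20 genes that fell, whose medians were -0.96 and -0.79. Selenow rests on a window of 6 nt, with 15 and 10 reads in Secisbp2 wild types and knockouts and 13 and 3 in those of Trsp. Selenoh had 24 and 11 reads for Secisbp2 and 10 and 4 for Trsp.

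Over the 9 RNA-seq libraries, the mRNAs nearest to Gpx4 in centred log2 level were Selenoh, with a mean absolute difference of 0.337, Gpx3 (0.358) and Selenos (0.417), a membrane protein of the endoplasmic reticulum, among 19 others. For 5' density they were Selenos (0.344), Selenof (0.519) and Msrb1 (0.520). For 3' density they were Dio1 (0.250), Selenop (0.311) and Selenow (0.374) among 11 others. Gpx3 mRNA was low, with group means from 1.17 to 1.58 RPKM. Unlike that of Gpx4, its change in Secisbp2 knockouts did not pass (-0.30, limma adjusted p = 0.166), so nearness need not mean a shared change. The 9 libraries share groups and depth, and these distances are descriptions.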

How the data were processed

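Livers of 4 groups of mice were profiled by RNA-seq of polyA RNA and by ribosome footprints, both size selected to short fragments. The authors deposited RPKM values in 3 tables (5' of the UGA, 3' of it, RNA), per the file headers. Bowtie 0.12.8 and the build mm9 are named in the submitters' processing notes. The sources used here do not give how reads were counted, filtered, set into windows or shared with pseudogenes. The tables hold 23 genes, named with a reference gene table (11 by symbol, 12 by synonym); no coordinates are given because the builds differ.

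Read numbers and mapped totals were computed from the RPKM steps (312 footprint and 203 RNA values above 0, each within 0.02 of a whole read). Intervals are exact, Poisson for densities and binomial for the 3'/5' ratio, and cover counting error only, since PCR copies of a molecule cannot be recognised. Genes averaging 1 RPKM or more were fitted as log2(RPKM + 0.5) with limma 3.58.1 in R 4.3.3, with all 4 groups in 1 fit. Two-sided p-values were adjusted by Benjamini-Hochberg over 20 genes, 12 for 3' values, or 19 for the ratios of Gpx4 to each other gene (threshold 0.05). RPKM are not counts, so no count model was used, and 2 against 2 or 3 libraries allow no useful exact permutation test. The fold changes understate those of low genes. The 5' density per mRNA was tested as an assay by genotype interaction. The fits were checked on simulated data.

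Gpx4 and the lists were chosen with earlier results of these data known. Named besides Gpx4 are the other peroxidases, the housekeeping list, the 3 nearest genes per measure, and the genes next to Gpx4 and at the ends of each order. Dio1, Selenop and Sephs2 were otherwise named after their values were seen. Alternatives were the pseudocount, filter, scaling, weights, replicate block, control group, groups in the fit and each library left out. Python 3.11.15 with numpy 2.4.6, pandas 2.3.3, scipy 1.17.1 and matplotlib 3.10.9 was used for reading and figures.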

Additional observations from a re-analysis of the deposited data

Results flagged for a closer look

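The effects of the knockouts on Gpx4 mRNA differed: the Secisbp2 effect minus the Trsp effect was -1.78 on the log2 scale (limma adjusted p = 0.000207), with both Secisbp2 knockout libraries below their wild types and both Trsp knockout libraries above theirs. For footprints 5' of the UGA the difference was -1.55 (adjusted p = 0.00893), with the same sides in all libraries. Secisbp2 groups differ in library code series, Trsp groups do not, and the part of the series in these differences was not tested. The mRNA difference holds the gap of -0.98 between the wild types, and it was not run with other controls.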

How the results depend on the processing

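Of 511 values under an alternative, for 28 results, 449 kept their direction and their side of the threshold. The cause of the others was not tested unless named. Values are log2 changes with limma adjusted p. The control group mattered for mRNA and 5' density. With the wild types pooled, mRNA came to -0.85 (0.0646) for Secisbp2 and -0.047 (0.935) for Trsp, and 5' density to -0.72 (0.118) for Secisbp2. With the other colony's wild type, Trsp mRNA came to -0.64 (0.00813), Trsp 5' density to -0.24 (0.517) and Secisbp2 5' density to -0.45 (0.182). The counts of genes that Gpx4 was lower or higher against moved too. Pooled, mRNA had 5 lower for Secisbp2 and 6 higher for Trsp, and 5' density 2 lower and 9 higher. With the other wild type, mRNA had 5 lower and 8 higher for Secisbp2 and 6 each way for Trsp, and 5' density 3 lower for Secisbp2 and 6 higher and 2 lower for Trsp.

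Scaling to the median ratio or level of the genes tested moved the median of all genes, by 0.50 and 0.27 for Secisbp2 mRNA, 0.56 and 1.18 for Trsp mRNA, 0.68 and 0.61 for Secisbp2 5' density, 0.70 and 1.18 for Trsp 5' density, 2.22 and 3.13 for Secisbp2 3' density and 2.98 and 3.58 for Trsp 3' density. Gpx4 then came to 0.91 (0.000904) and 1.53 (1.86e-05) for Trsp mRNA, -0.43 (0.123) and -0.51 (0.107) for Secisbp2 5' density, 1.13 (0.00311) and 1.61 (0.00143) for Trsp 5' density, -0.71 (0.0651) and 0.20 (0.711) for Secisbp2 3' density and 0.22 (0.418) and 0.82 (0.0539) for Trsp 3' density. The 3'/5' ratio came to -0.95 (0.204) and -1.43 (0.0763) for Secisbp2 and -1.13 (0.111) and -0.80 (0.204) for Trsp, and its difference between knockouts to -0.62 (0.542) at the median level. The median 3'/5' change of the 12 genes moved by 0.87 and 0.39 for Secisbp2 and by 2.06 and 2.38 for Trsp. For each measure, scaling to the genes tested removes any change that they share. Between wild types, the median level gave -0.87 (0.0290) for 5' and 0.047 (0.890) for 3' density.

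Trsp mRNA passed with a minimum of 5 RPKM (0.35, 0.0393), with precision weights (0.35, 0.0433) and with the 2 groups alone (0.35, 0.0127). The minimum of 5 RPKM, which removes Gpx2, left 0 genes that Gpx4 mRNA was lower against in Trsp knockouts. Secisbp2 5' density did not pass with the 2 groups alone (-1.12, 0.0654), and that between wild types passed with them (-0.67, 0.0458) and with weights (-0.67, 0.0446).

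With a library left out, Trsp mRNA ran from 0.24 to 0.48, 5' density between wild types from -0.70 to -0.64, and 3' density between wild types from -0.33 to 0.11. The difference of knockout effects ran from -0.58 to 0.23 for 3' density, from 1.03 to 1.70 for the 3'/5' ratio and from -0.063 to 0.53 for 5' density per mRNA. The 3'/5' ratio in Secisbp2 knockouts ran from -2.04 to -1.60, 5' density per mRNA in Trsp knockouts from -0.066 to 0.23, and the genes with Gpx4 5' density higher in Secisbp2 knockouts from 2 to 4.

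Replicate numbers are shared by the groups, but nothing ties them to a litter or batch, and same-numbered knockout and wild type libraries did not deviate together throughout: correlations over genes ran from -0.44 to -0.04 for mRNA, and for 5' density were 0.14 for Secisbp2 and 0.67 and -0.19 for Trsp. With the replicate block, Trsp mRNA was 0.48 (0.0123), the 3' difference of knockout effects 0.024 (0.965) and the 3' difference between wild types 0.10 (0.800); no other call or sign changed. The 25 reads 3' of the UGA in each Trsp knockout limit the precision there.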
